A study of Mus musculus with 2 samples.

Results

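The Kruppel-like factors described here are 10 transcription factor genes of the vessel wall, Klf2, Klf3, Klf4, Klf5, Klf6, Klf9, Klf10, Klf13, Klf15 and Klf16. They are described by name, with every probe of each gene, and were picked with earlier results of these data known. The array holds 16 probes for them among 41161 gene probes. The files name 8 of the genes with 13 probes by their Klf symbol. Klf9 stands there under its older name Bteb1 (2 probes) and Klf10 under Tieg1 (1 probe), and both were matched through the accession beside the name. All 10 genes were compared, among 22811 genes in all.

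RNA was taken from the aorta of 6 apoE-/- mice (3 males and 3 females) aged 16 weeks, a strain that lacks apolipoprotein E, carries high plasma cholesterol and develops atherosclerosis. No wild-type mice were analysed here, and the apoE deletion is shared by both groups. The first group is the aortic arch segment, made up of root and arch with the top 2 mm of thoracic aorta, and labelled as prone to atherosclerosis. The second is the central thoracic aorta, the next 6 mm, labelled as resistant. Vessels were perfused with the detergent Triton X-100 to strip the endothelium. Extracts of the 6 mice were pooled into 1 RNA pool per segment, and both pools were put on 2 Agilent two-colour mouse arrays with the dyes exchanged. On array 1 the arch was in green (Cy3) and the thoracic aorta in red (Cy5), and on array 2 the other way round. The 2 arrays hold the same pools and count as 1 replicate: there is no spread between mice, no test was possible and no p-value is given. Every ± below is the SD between the 2 arrays and measures the technique only, and the number of arrays limits the precision.

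Kruppel-like factors bind GC-rich and CACCC sequences through C2H2 zinc fingers at the C-terminus, and differ in the N-terminal part that recruits coactivators or corepressors. In the vessel wall Klf2 and Klf4 are known as factors that laminar flow induces in endothelium through the MEK5-ERK5-MEF2 pathway, where they raise anti-thrombotic and anti-inflammatory genes. In smooth muscle Klf4 represses contractile genes and Klf5 is linked to growth and to the embryonic isoforms that return in lesions. Klf15 is known as a metabolic factor induced by glucocorticoids, and Klf9, Klf10, Klf13 and Klf16 form the branch that recruits the Sin3 corepressor.

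The arch over thoracic log2 ratio of the brightest probe was above 0 on both arrays for 7 genes (Klf2, Klf3, Klf4, Klf6, Klf9, Klf10 and Klf13), below 0 on both for Klf5, and of opposite sign on the arrays for Klf15 and Klf16. For comparison, 32.4% of all genes were above 0 on both arrays and 35.2% below 0 on both. The signs on each array depend on how the dyes were balanced: with median centring in place of loess, only Klf13 was above 0 and only Klf5 below 0 on both, and 8 genes had opposite signs, as did 65.3% of all genes. In the means over both arrays only a dye effect that is equal on both cancels. These means kept their signs under that setting, but some moved towards 0. Klf2 went from 0.14 to 0.02 and Klf4 from 0.15 to 0.05, while Klf13 stayed at 0.37 and Klf5 went from -0.50 to -0.505. The median over the 10 genes was 0.12, beside -0.01 over all genes compared. In size, without the sign, the median was 0.15 for the family and 0.075 for all genes. None of the 10 genes reached a 2-fold mean with at least 1.5-fold the same way on each array, a size that 0.618% of all genes reached, 0.473% towards the arch and 0.145% towards the thoracic aorta. Of all probes 0.500% reached it, and none of the family's. The rule is strict for dim probes: without the offset in the background correction 262 genes reached it in place of 141, so a gene that misses it may still differ. A smaller step of at least 1.2-fold the same way on each array was passed by 2 of the 10, Klf13 towards the arch and Klf5 towards the thoracic aorta. That step was passed by 7.76% of all genes, 5.00% towards the arch and 2.75% towards the thoracic aorta. When the same step was asked of red over green, without turning the dye swap, 0.281% of genes passed it. Loess had already balanced red against green by brightness on each array, so this share leaves out the dye bias that loess removed.

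Counted by probe, 15 of the 16 could be compared, and all 15 were well above background in both pools on both arrays, with none saturated. Of these, 10 were higher in the arch on both arrays and 2 lower on both, against 33.4% and 33.0% of all probes. The smaller step was passed by 4 probes, 1 each of Klf2, Klf9 and Klf13 towards the arch and 1 of Klf5 towards the thoracic aorta. Over the whole array 6.99% of probes passed it, 4.59% towards the arch and 2.39% towards the thoracic aorta. For red over green, likewise after loess, 0.249% passed it. Under median centring the probes of Klf2 and Klf5 passed it and those of Klf9 and Klf13 did not. By gene, that setting left Klf5 alone past the step, and 3.65% of all genes, 2.59% towards the arch and 1.06% towards the thoracic aorta. The SD between the arrays ran from 0.01 to 0.24 over the 15 probes, with a median of 0.03, beside 0.055 over all genes. Only the Klf16 probe exceeded the 95th percentile of that SD over all genes, 0.178. The scatter of array 1 against array 2 shows where each gene lies.

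**Figure D1:**
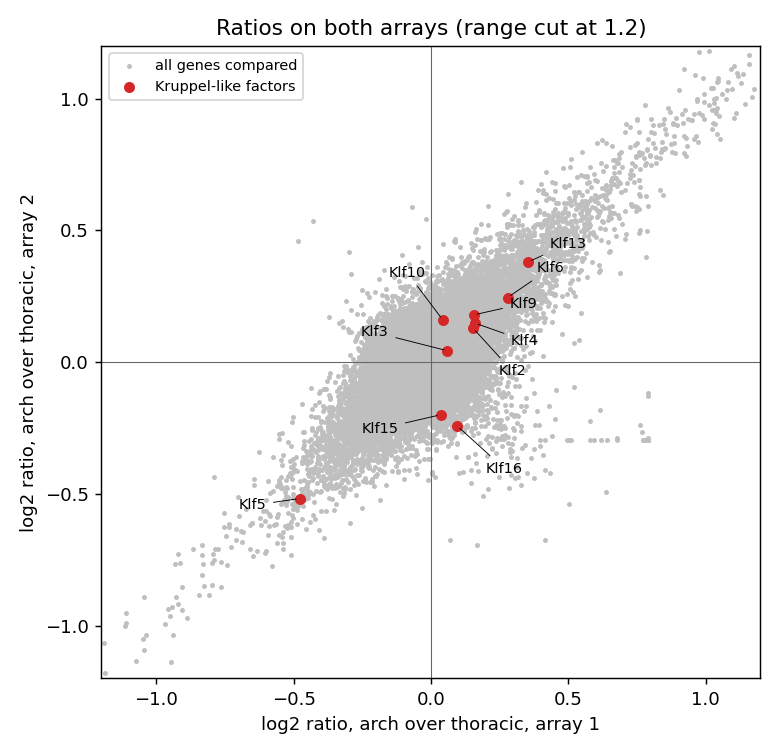
Log2 ratio of arch over thoracic on array 1 (x axis) against array 2 (y axis) for every gene compared (grey) and for the 10 Kruppel-like factors (red), each by its brightest probe; both axes are cut at 1.2 in size. Klf5 lies at -0.48 and -0.52, Klf13 at 0.35 and 0.38, and Klf16 has opposite signs on the arrays.

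As to the whole array, between 76.5% and 82.6% of gene spots were well above background in the 4 channels, and negative control spots had mean signals of 77.0 to 97.1. Pearson's r of the arch over thoracic ratio between arrays was 0.81, across genes, which are not independent replicates and share the same 2 pools. Smooth muscle markers are present in both pools: all 12 of the list were well above background in each, and 3 were saturated. All 15 endothelial markers were also well above background in both pools, although the vessels had been stripped. In bulk RNA of this kind, fewer cells of a type and less RNA per cell cannot be told apart.

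Promoter stretches are printed because Klf2, Klf9 and Klf13 each had a probe past the smaller step towards the arch. Each is the 250 bases before the annotated transcription start, read 5′ to 3′ on the gene's strand, from RefSeq's promoters on mouse build GRCm38.p6. They lie at chr8:72318812-72319061 on the plus strand for Klf2, at chr19:23140976-23141225 on the plus strand for Klf9, and at chr7:63938916-63939165 on the minus strand for Klf13. Capitals mark the GC box GGGCGG, the CCAAT box and the MEF2 consensus, on either strand.
Klf2: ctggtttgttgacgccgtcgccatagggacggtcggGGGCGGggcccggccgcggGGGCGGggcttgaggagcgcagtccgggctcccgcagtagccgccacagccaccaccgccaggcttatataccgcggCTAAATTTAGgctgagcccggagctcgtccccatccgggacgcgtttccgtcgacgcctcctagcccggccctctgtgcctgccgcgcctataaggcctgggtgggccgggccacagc
Klf9: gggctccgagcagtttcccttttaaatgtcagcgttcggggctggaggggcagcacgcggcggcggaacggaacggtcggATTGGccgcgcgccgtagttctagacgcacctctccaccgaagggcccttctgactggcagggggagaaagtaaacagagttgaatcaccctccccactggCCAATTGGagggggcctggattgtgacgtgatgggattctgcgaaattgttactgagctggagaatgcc
Klf13: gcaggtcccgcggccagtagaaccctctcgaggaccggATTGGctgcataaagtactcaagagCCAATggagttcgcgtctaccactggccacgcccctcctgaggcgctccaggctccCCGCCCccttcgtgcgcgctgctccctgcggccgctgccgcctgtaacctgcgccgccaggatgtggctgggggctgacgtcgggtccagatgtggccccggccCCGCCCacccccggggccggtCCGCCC
The Klf2 stretch holds 2 GC boxes and 1 match to the MEF2 consensus, at positions -118 to -109 counted from the start. The Klf9 stretch holds no GC box and 3 CCAAT boxes, of which the pair nearest the start overlaps on opposite strands. The Klf13 stretch holds 3 GC boxes and 2 CCAAT boxes. RefSeq's table had an entry for 7 of the 10 genes, and not for Klf5, Klf10 and Klf16. Of these 7 promoters, 6 held GGGCGG, 4 held CCAAT and 1 held the MEF2 consensus, while among 32851 promoters of the same length 32.7%, 33.8% and 2.92% held them. These matches are letters in a window and say nothing of binding.

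Klf2, an endothelial factor that flow induces, was measured by 2 probes that gave different ratios. The brighter probe had scanned signals of 5033 in the arch and 6520 in the thoracic aorta on array 1, and of 6962 and 5026 on array 2. In each array the red channel was the brighter, so the raw signals of the pools overlap. After normalization its log2 ratio was 0.15 on array 1 and 0.13 on array 2, a mean of 0.14 ± 0.02 (SD, n = 2 arrays) towards the arch and under the smaller step. With median centring the arrays gave -0.30 and 0.35 for this probe. The second probe had signals of 2131 in the arch and 1773 in the thoracic aorta on array 1, and of 2599 and 1328 on array 2. Here the arch was the brighter pool in either dye and the signals of the pools do not overlap. Its log2 ratio was 0.68 and 0.63 on the arrays, with a mean of 0.66 ± 0.03 (SD, n = 2 arrays), the highest of the 15 probes. The ratios of the probes lay 0.52 apart on the log2 scale, and 2.38% of the 6856 genes with at least 2 compared probes had a range as large, with a median range of 0.10. With the median over its probes Klf2 stood at 0.40 and passed the smaller step. The files do not place either probe on the transcript, and which of them follows the Klf2 mRNA more closely was not tested.

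Klf4, which flow also induces in endothelium and which represses contractile genes in smooth muscle, had a single probe. Its signals were 3921 in the arch and 4953 in the thoracic aorta on array 1, and 5255 and 3740 on array 2, so that the pools overlap. The normalized log2 ratio was 0.16 on array 1 and 0.15 on array 2, with a mean of 0.15 ± 0.01 (SD, n = 2 arrays), 1.11-fold and under the smaller step. With median centring the arrays gave -0.27 and 0.38, with a mean of 0.05.

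**Figure D2:**
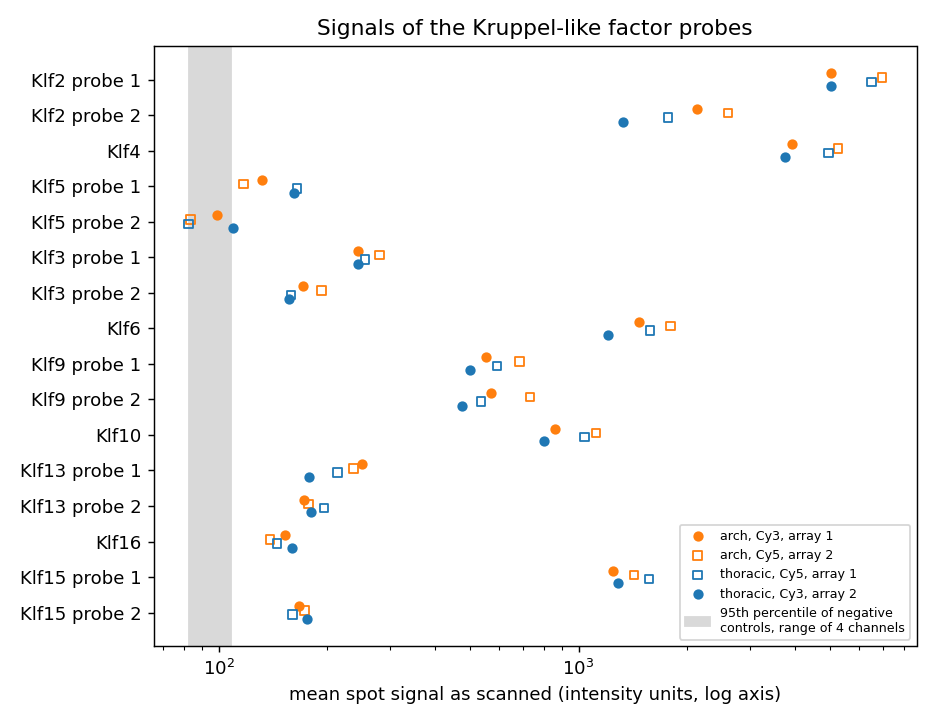
Mean spot signal as scanned (x axis, intensity units on a log scale) of the 16 probes (y axis) for the arch (orange) and thoracic (blue) pools, with circles for Cy3, squares for Cy5 and a grey band for the 95th percentile of negative controls. The Klf2 and Klf4 probes lie between 1328 and 6962, while Klf5 probe 2 lies within or beside the band, with signals of 82.5 to 109.8.

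Klf5, the growth-linked factor of smooth muscle, was the 1 gene of the 10 below 0 on both arrays. Its compared probe had signals of 131.8 in the arch and 165.4 in the thoracic aorta on array 1, and of 117.2 and 161.5 on array 2. The thoracic pool was brighter on each array and the pools do not overlap. The log2 ratio was -0.48 on array 1 and -0.52 on array 2, with a mean of -0.50 ± 0.03 (SD, n = 2 arrays), or 1.41-fold higher in the thoracic aorta. The probe is dim: above the mean of the negative controls it had 37.0 and 39.6 units in the arch and 88.4 and 64.3 in the thoracic aorta. Its ratio changed in size, though not in sign, with the way background was taken off. In the deposited log ratio, made from the scanner software's own background-subtracted signals, the mean was -1.05 ± 0.07 (SD, n = 2 arrays), a 2.06-fold difference, and this probe alone of the 15 then passed the 2-fold rule, which 1.23% of probes passed in those values. With no background subtraction the mean was -0.39. The sign was the same in each of the 9 alternative settings. The second Klf5 probe had signals of 99.0 and 82.5 on array 1 and of 83.5 and 109.8 on array 2, arch before thoracic. It was not well above background in the arch on either array and was so in the thoracic pool on array 2 only. Its mean log2 ratio was -0.09 ± 0.10 (SD, n = 2 arrays), less than the SD, so it gives no direction.

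**Figure D3:**
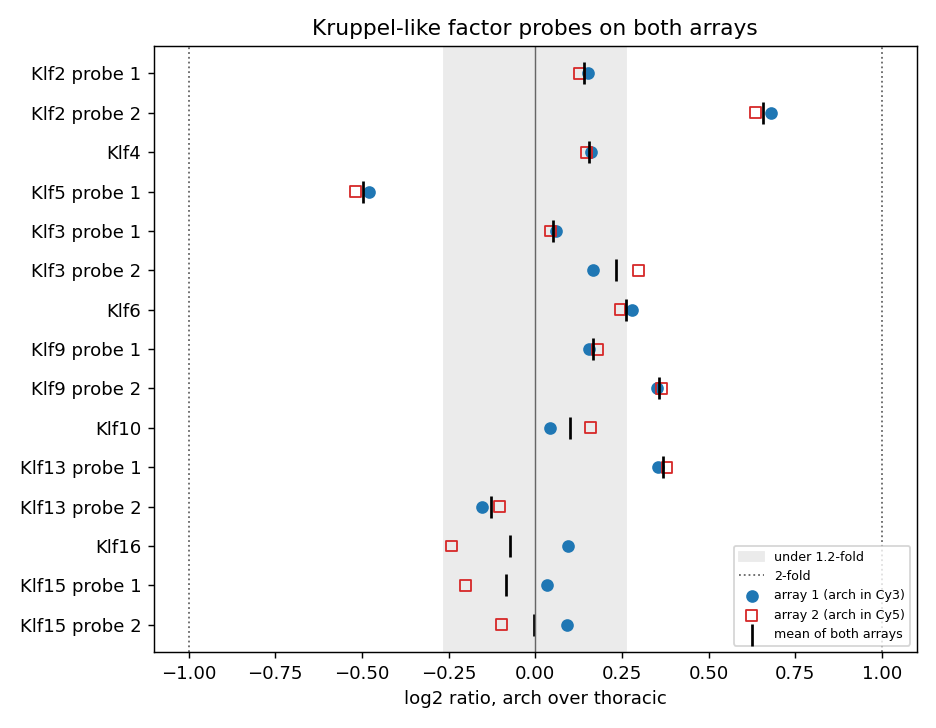
Log2 ratio of arch over thoracic (x axis) for the 15 compared probes (y axis) on array 1 (filled circles), on array 2 (open squares) and as the mean (vertical tick); the grey band is under 1.2-fold and dotted lines mark 2-fold. Klf2 probe 2, Klf9 probe 2 and Klf13 probe 1 lie right of the band on both arrays, Klf5 probe 1 left of it, and Klf16 shows the widest gap between arrays.

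Klf6, a widely expressed early response gene, had signals of 1477 in the arch and 1582 in the thoracic aorta on array 1, and of 1801 and 1207 on array 2. Its log2 ratio was 0.28 on array 1 and 0.24 on array 2, with a mean of 0.26 ± 0.02 (SD, n = 2 arrays) towards the arch. It lies just outside the smaller step, whose limit is 0.263 on each array, since array 2 fell short of it. With median centring the arrays gave -0.04 and 0.48 for Klf6. Klf3, a repressor that recruits the corepressor CtBP, had 2 probes. The brighter had signals of 244.7 and 255.2 on array 1 and of 280.3 and 243.6 on array 2, arch before thoracic, and a mean log2 ratio of 0.05 ± 0.01 (SD, n = 2 arrays). With median centring the arrays gave -0.07 and 0.20 for it. The second had signals of 172.0 and 158.9 on array 1 and of 193.0 and 157.3 on array 2, and a mean log2 ratio of 0.23 ± 0.09 (SD, n = 2 arrays). For this second probe the scanned signals of the pools do not overlap. Above the mean of the negative controls they do, at 77.2 and 115.4 units in the arch and 81.8 and 60.2 in the thoracic aorta. In the deposited log ratio its mean was 0.36 and it passed the smaller step, as 13.3% of probes did in those values. The ratios of the Klf3 probes lay 0.18 apart, a range that 27.3% of genes with several probes reached.

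Klf9, which glucocorticoids and thyroid hormone induce, had 2 probes of nearly the same brightness. The first had signals of 554.6 in the arch and 593.5 in the thoracic aorta on array 1, and of 684.6 and 500.2 on array 2, and a mean log2 ratio of 0.17 ± 0.02 (SD, n = 2 arrays). With median centring the arrays gave -0.07 and 0.40 for it. The second had 570.1 and 535.7 on array 1 and 734.3 and 473.2 on array 2, and a mean of 0.36 ± 0.01 (SD, n = 2 arrays). Only the second passed the smaller step, with log2 ratios of 0.35 and 0.36 on the arrays, and with median centring, at 0.13 and 0.59, it did not. Both pointed to the arch, and whether Klf9 counts as past the step depends on which of them stands for the gene. Klf10, an early gene of TGF-beta signalling, had signals of 860.0 and 1040 on array 1 and of 1118 and 802.5 on array 2, arch before thoracic. Its log2 ratio was 0.04 on array 1 and 0.16 on array 2, with a mean of 0.10 ± 0.08 (SD, n = 2 arrays), little more than the SD. With median centring the arrays gave -0.23 and 0.40 for Klf10.

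Klf13, of the same branch, had the largest ratio towards the arch among the 10 genes by brightest probe, and its probes pointed opposite ways. The brighter had signals of 250.8 in the arch and 213.7 in the thoracic aorta on array 1, and of 237.1 and 178.3 on array 2, and the arch was the brighter pool on each. Its log2 ratio was 0.35 and 0.38 on the arrays, with a mean of 0.37 ± 0.02 (SD, n = 2 arrays), or 1.29-fold higher in the arch. The second probe had signals of 172.9 and 196.1 on array 1 and of 177.8 and 181.1 on array 2, and a mean log2 ratio of -0.13 ± 0.04 (SD, n = 2 arrays). The 0.495 between them was reached by 2.83% of genes with several probes. With median centring the brighter probe gave 0.24 on array 1 and 0.50 on array 2 and did not pass the smaller step. With the median over its probes Klf13 stood at 0.12 and no longer passed the smaller step. Klf16 had signals of 152.6 and 145.1 on array 1 and of 139.0 and 159.6 on array 2, and log2 ratios of 0.09 and -0.24. The arrays disagree in sign, and its mean of -0.07 ± 0.24 (SD, n = 2 arrays) lies well within their SD.

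Klf15, the metabolic factor, also gave no direction. Its brighter probe had signals of 1246 in the arch and 1572 in the thoracic aorta on array 1, and of 1427 and 1287 on array 2. The log2 ratio was 0.03 on array 1 and -0.20 on array 2, with a mean of -0.08 ± 0.17 (SD, n = 2 arrays). The second probe was dimmer, with signals of 160.5 to 176.0 over the 4 channels, and had a mean of -0.00 ± 0.13 (SD, n = 2 arrays). The order of the genes by mean log2 ratio ran from Klf13 (0.37) and Klf6 (0.26) through Klf9 (0.17), Klf4 (0.15), Klf2 (0.14), Klf10 (0.10) and Klf3 (0.05) to Klf16 (-0.07), Klf15 (-0.08) and Klf5 (-0.50). Each gene from Klf9 down to Klf15 lay closer to its neighbour in this order than the larger of their SDs between arrays, so neighbours among these 7 do not differ beyond their spread. The gaps from Klf13 to Klf6, from Klf6 to Klf9 and from Klf15 to Klf5 were larger than those SDs. The order rests on the brightest probes, though. The probes of Klf2, Klf3, Klf9 and Klf13 differ among themselves by more than the first of these gaps. By its second probe, at 0.66, Klf2 would stand above Klf13. The values are ratios within each gene and say nothing of the level of any gene against another.

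The genes around the family were taken from lists of pathway genes, named by size. By the mean of both arrays 47.3% of all genes compared were above 0. The smaller step was passed by 5.00% of all genes towards the arch and by 2.75% towards the thoracic aorta. Under median centring these shares were 2.59% and 1.06%. Among the other Klf and Sp genes 11 of 16 could be compared. Their median log2 ratio was 0.003, 6 were above 0, and none passed the smaller step. The largest in size were Klf7 at 0.22 ± 0.13 and Klf12 at -0.22 ± 0.02 (SD, n = 2 arrays). A further probe gave 0.24 for Klf7, and 0.06 for Klf12, of the opposite sign. Among 16 corepressors, coactivators and ubiquitin ligases that act on Klf proteins, the median was 0.06 and none passed the step. Ctbp2, a corepressor that Klf3 recruits, stood at 0.26 ± 0.07 and the acetyltransferase Ep300 at 0.25 ± 0.04 (SD, n = 2 arrays). A further probe gave 0.22 for Ctbp2 but -0.01 for Ep300. Of the flow and MEK5-ERK5-MEF2 genes that act before Klf2 and Klf4, 14 of 15 were compared, with a median of 0.04. Only Map3k3, the MEKK3 kinase of that pathway, passed the step, at 0.34 ± 0.05 (SD, n = 2 arrays). It did not under median centring, and a further probe of it gave 0.17. Pdcd10 stood at -0.19 ± 0.00, with -0.05 for a further probe, and the transcription factor Mef2c at -0.18 ± 0.11.

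Genes that Klf2 and Klf4 are known to control in endothelium were mostly higher in the arch pool. Of 14 compared (of 15), 10 were above 0, with a median log2 ratio of 0.43. Towards the arch 8 passed the smaller step and towards the thoracic aorta 1 did, beside the 5.00% and 2.75% of all genes above, and under median centring 6 and 0 did, beside 2.59% and 1.06%. Past the 2-fold rule were Kdr, a receptor of VEGF, at 1.24 ± 0.04, and Thbd, the anticoagulant thrombomodulin that Klf2 raises, at 1.16 ± 0.00 (SD, n = 2 arrays). The adhesion molecule Vcam1, which Klf2 represses, stood at 0.97 ± 0.08, with 0.54 for a further probe, and Edn1, the endothelin that Klf2 also represses, at 0.79 ± 0.06 (SD, n = 2 arrays). Genes known to be raised and to be repressed by Klf2 are thus among those past the step towards the arch. Of the 14 genes 4 are also endothelial markers (Kdr, Cdh5, Tek and Nos3), and the other 10 had a median of 0.255 with 5 past the step towards the arch. Ccl2, a chemokine, was the 1 gene past the step towards the thoracic aorta, at -0.35 ± 0.03 (SD, n = 2 arrays), and was named after its value was seen. Nos3, the endothelial nitric oxide synthase that Klf2 raises, stood at 0.09 ± 0.10 (SD, n = 2 arrays) and was likewise named after its value was seen.

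Most markers of endothelium and macrophages were also above 0, though many of them by less than the smaller step. All 15 endothelial markers were above 0 by their brightest probe, with a median of 0.36. Further probes gave -0.15 for Flt1, -0.02 for Cdh5 and 0.68 for Vwf, which are named for that reason. By brightest probe the smaller step was passed by 7 of the 15 towards the arch and none towards the thoracic aorta. Of all genes 5.00% and 2.75% passed it. Their summed background-subtracted signal was 3263 and 3595 in the arch and 2187 and 2178 in the thoracic aorta. Of 14 macrophage markers Lyz2 was saturated, and 11 of the other 13 were above 0, with a median of 0.38. The 2-fold rule was passed by 5, all towards the arch, beside 0.473% of all genes. The smaller step was passed by 7 of the 14 towards the arch, and the other 7 did not pass it. Among those were Csf1r at 0.07, Itgam at 0.04, Mrc1 at 0.01, Adgre1 at -0.06 and Cd14 at -0.14, named after their values were seen. The summed signal of the 14, with the saturated Lyz2 included, was 107719 and 122055 in the arch and 90535 and 77519 in the thoracic aorta. A sum without Lyz2 was not taken. In both lists the summed signals of the pools do not overlap, and no marker of either list was under background in either pool. Of the 9 smooth muscle markers that were not saturated, 8 were above 0 with a median of 0.15. Under median centring 6 of them were, with a median of 0.03, while the endothelial median was 0.37. Klf2 and Klf4 are known in endothelium and macrophages as well as in smooth muscle, and the part of these cells in the ratios of the family was not tested.

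**Figure D4:**
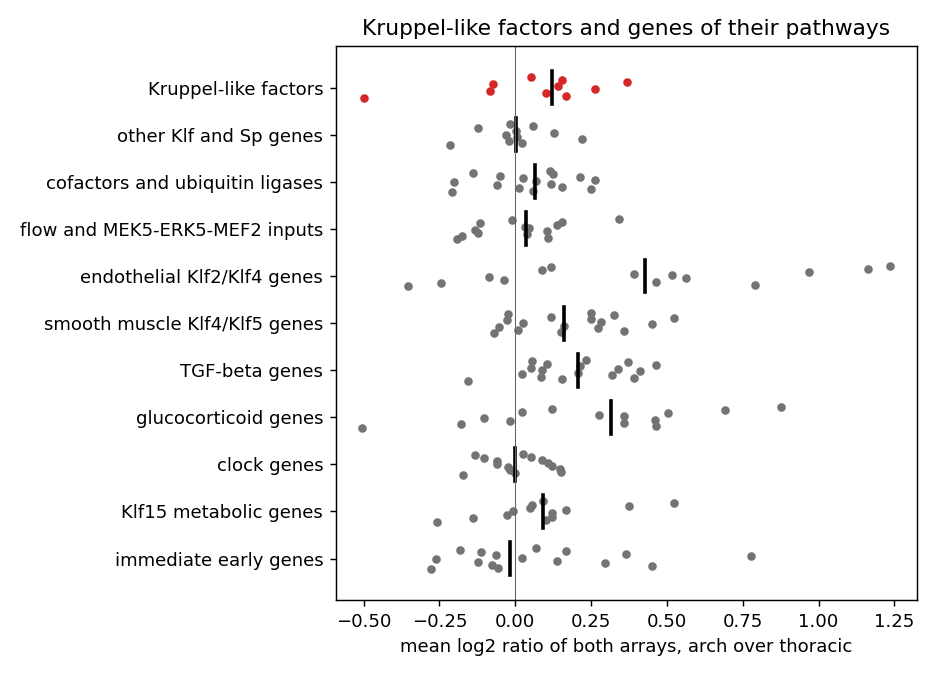
Mean log2 ratio of arch over thoracic over both arrays (x axis) of each compared gene in the family (red points) and in 10 lists of pathway genes (grey points, Acta2 and Tagln included although saturated), with a black bar at each median. The endothelial Klf2 and Klf4 genes have the highest median, 0.43, and the clock genes lie within 0.17 of 0.

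Among 17 smooth muscle genes that Klf4 and Klf5 repress or that rise with Klf5, 2 contractile genes that Klf4 represses, Acta2 and Tagln, were saturated, so their ratios are left out and they are named for that reason. Of the other 15 genes 11 were above 0 with a median of 0.15. The smaller step was passed by 3, all towards the arch, beside 5.00% of all genes. Myh10, the embryonic myosin heavy chain SMemb, stood at 0.52 ± 0.19, but a further probe of it gave 0.12. Egr1 stood at 0.45 ± 0.08 and the cell cycle inhibitor Cdkn1a at 0.36 ± 0.00 (SD, n = 2 arrays). With median centring in place of loess the median was 0.03, with 9 above 0 and 1 past the step, so the shift of this list depends on how the dyes were balanced. Of 17 TGF-beta genes 16 were above 0, beside 47.3% of all genes, with a median of 0.21. Past the step towards the arch were 5, beside 5.00% of all genes. Smad6, an inhibitor of the pathway, stood at 0.46 ± 0.02, Smad3 at 0.41 ± 0.11 and the ligand Tgfb1 at 0.37 ± 0.06 (SD, n = 2 arrays). Under median centring 14 were above 0 and 2 passed, beside 2.59% of all genes.

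Of the glucocorticoid receptor genes that move with Klf9, Klf13 and Klf15, 14 of 15 were compared and 10 were above 0, with a median of 0.32. The step was passed by 7 towards the arch and by 1, Tsc22d3, towards the thoracic aorta, beside 5.00% and 2.75% of all genes. Pdk4, a kinase that spares glucose, stood at 0.88 ± 0.08 and Sgk1 at 0.69 ± 0.08, and Tsc22d3, the glucocorticoid-induced leucine zipper, at -0.50 ± 0.11 (SD, n = 2 arrays). Under median centring 3 passed towards the arch and 1 towards the thoracic aorta, beside 2.59% and 1.06% of all genes. The 15 clock genes that share control with Klf9, Klf10 and Klf15 had a median of -0.00 and none passed the step. Tef was lowest at -0.17 ± 0.07 (SD, n = 2 arrays), and a further probe of it gave 0.04. Among 13 of 14 genes listed as controlled by Klf15, most of them metabolic, the median was 0.09. Ccn2, connective tissue growth factor and not a metabolic gene, at 0.52 ± 0.02 passed the step. So did Pck1 at 0.37 ± 0.01 (SD, n = 2 arrays), and neither did under median centring. The 16 immediate early genes had a median of -0.02, and Egr2 at 0.78 ± 0.02 (SD, n = 2 arrays) and Egr1 passed the step towards the arch, of which 1 did under median centring.

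**Figure D5:**
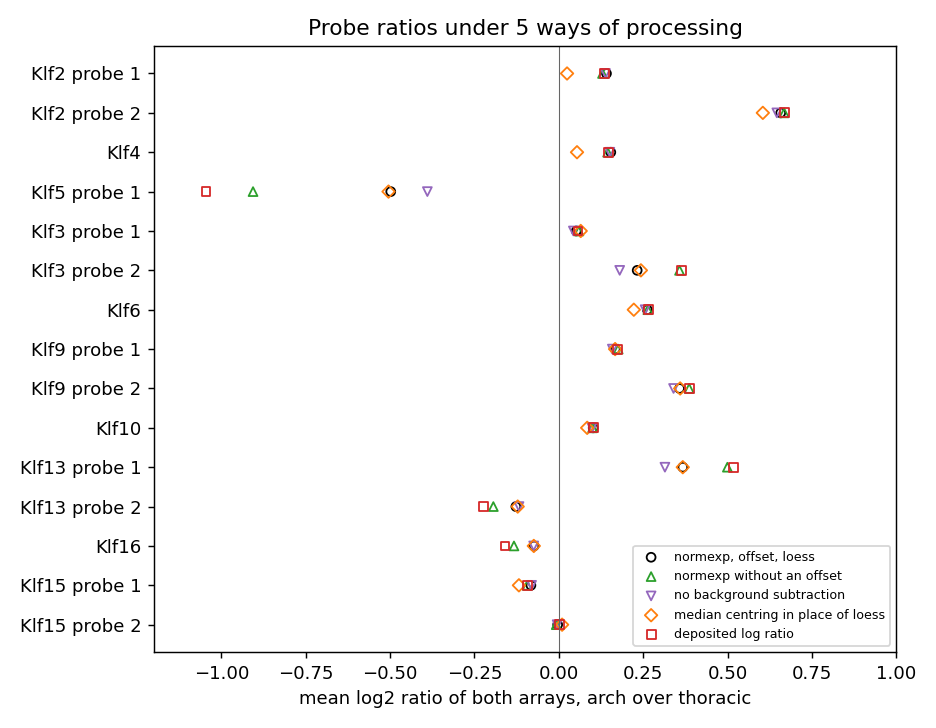
Mean log2 ratio of arch over thoracic over both arrays (x axis) of the 15 compared probes (y axis) under 5 ways of processing, 1 marker shape each. Klf5 probe 1 moves most, from -0.39 without background subtraction to -1.05 in the deposited log ratio, and stays left of 0 in each.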

How the data were processed

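Per the labels, 2 RNA pools (6 mice each) were hybridised to 2 two-colour arrays in dye swap. The authors deposited scanner tables with spot intensities, without normalization per the file headers, and with the scanner software's log ratio. For the brighter Klf2 probe that log ratio was 0.15 and 0.12 on the arrays, near the loess values of 0.15 and 0.13. Median centring gave -0.30 and 0.35. For this probe the deposited log ratio thus lies with loess, and it is no independent check of the dye balance. The scanner's log ratio, as deposited, holds log10 of red over green, per the file headers, and its sign was turned on array 1. The series table already holds log10 of arch over thoracic on both arrays and was not turned. Both were converted to log2. The file headers give Agilent Feature Extraction 8.1.1.1 and the submitters' processing notes 9.1.1.1. Ratios come from limma 3.58.1 (R 4.3.3): normexp against local background with an offset of 50, loess within each array with control spots at weight 0, outlier spots (8 and 5) left out, spots averaged per probe, array 1 turned, arrays averaged. A probe was compared when well above background in the same pool on both arrays (32176 of 41161). The brightest of a gene's compared probes represents it. The script was checked on simulated data. Genes were named by accession or symbol through RefSeq's gene table, or kept the file's name. Summed signals are mean spot signals minus local background.

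Every probe of the 10 genes is described; of each list at most 4 genes are named, those past the 2-fold rule first and then by size, except where stated, and 1 gene that this rule names is not reported here. The lists, like the members, were chosen with earlier results of these data known. Alternatives were no offset, no background subtraction, median centring, the deposited log ratios, the median over probes, no filter and leaving out an array. Other settings for the list medians, and leaving saturated genes out of lists, were added after seeing the data.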

Additional observations from a re-analysis of the deposited data

How the results depend on the processing

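Over the alternatives the mean ratio kept its sign for Klf2, Klf3, Klf4, Klf5, Klf6, Klf9, Klf10 and Klf13, and Klf15 and Klf16 kept it in 8 of 9, being above 0 at 0.035 and 0.095 without array 2. The family median of 0.12 moved to 0.06 (0.059) with median centring in place of loess, and lay at 0.124 to 0.138 with either array left out. Klf5 alone passed the 2-fold rule in the deposited log ratio and in the series table, a count of 1 in each, and none did elsewhere. The smaller step, passed by 2 genes, was passed by 1 (Klf5) under median centring and by 2 to 3 with an array left out, Klf6 joining without array 2. Of all genes 3.65% passed it under median centring and 12.6% and 11.2% without array 1 and array 2, beside 7.76%. With the median over probes Klf2 passed it at 0.40 and Klf13 did not at 0.12. Over all genes the 2-fold rule was passed by 141, and by 262 with no offset and 309 in both deposited tables. Dim probes limit what can be seen: the compared probes of Klf3, Klf5, Klf13 and Klf16 and the second of Klf15 had signals of 117.2 to 280.3, against 95th percentiles of 83.0 to 108.6 in negative controls. No paired analysis was possible because both arrays hold the same 2 pools and there is no second replicate.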

Other observations

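Markers of further cell types were also counted. All 10 mesothelial markers were above 0, with a median log2 ratio of 1.35, 8 past the 2-fold rule, and Upk3b at 1.79 ± 0.04 (SD, n = 2 arrays). Of 13 heart muscle markers 11 were above 0 and 5 passed the 2-fold rule, with Myl7 at 3.65 ± 0.12. By comparison, 0.473% of all genes passed that rule towards the arch. Of 11 fibroblast markers Col3a1 and Dcn were saturated, and the other 9 were above 0 with a median of 0.44, which under median centring was 0.36 with 7 above 0. Of 7 brown fat markers 5 were above 0, with a median of 0.545. Of 9 adipocyte markers Fabp4 was saturated, and the other 8 had a median of -0.07, and of -0.13 under median centring; with Fabp4 the medians were 0.02 and -0.24. The medians of skeletal muscle, lymphocyte, and Schwann cell and neuron markers were -0.09, -0.002 and 0.04, and -0.12, 0.007 and 0.04 under median centring. The part of these cells in the Klf ratios was not tested.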
